A study of Mus musculus with 12 samples.

Results

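Zfp710, Zmiz1 and Zmiz2 were followed here as a set of 3 transcription factor and coregulator genes, out of 21627 protein-coding genes on chromosomes 1 to 19 and X, in H3K27ac ChIP-seq peak lists of mouse fat-cell cultures. The set was selected on the covered length of H3K27ac regions at the ends of Zfp710 and Zmiz1, which had been lower in Azin2-/- than in wild-type in these same libraries, and Zmiz2, the paralog of Zmiz1, was added to it. Genotype values are therefore given as a description, without a test. The libraries came from Azin2-/- cells (replicates 1, 2 and 8) and wild-type cells (replicates 1, 2 and 2b), 3 per genotype, and 6 matching inputs were not analysed here. Both genotypes were labelled adipocyte progenitors from adipose tissue, subcutaneous per the design text. Growth for 1 week in 4.5 g/l glucose medium plus 10% serum came first. An induction of 2 days followed, with dexamethasone and rosiglitazone at 1 µM each, IBMX at 0.5 mM and insulin at 5 µg/ml. Insulin at 5 µg/ml was then kept alone for a further 5 days, the medium being renewed every 2 days. The labels give neither the age or sex of the mice, nor the kind of Azin2 allele, nor whether replicates came from separate animals, so the p-values below measure only the spread between these libraries. They also do not say how wild-type replicates 2 and 2b relate, so n = 3 counts libraries.

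H3K27ac, acetylation of lysine 27 on histone H3, sits on nucleosomes beside active start sites and at active enhancers. ZMIZ1 and ZMIZ2 carry a MIZ-type zinc finger that they share with the PIAS proteins, which attach the small modifier SUMO to other proteins. Both act as coactivators of the androgen receptor. ZMIZ1 is also a coactivator of Smad factors and of p53, and serves as a partner of Notch1 in T-cell precursors. Zfp710 encodes a zinc-finger protein, a class whose members mostly bind DNA.

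The stretches below show where the starts of Zfp710 and Zmiz1 lie, because the peaks are described relative to them. Each is the RefSeq promoter window on GRCm38.p6, from 250 bases before to 50 after the start site, read 5′ to 3′ on the plus strand, with every CpG in capitals. Of the 3 genes, 2 matched the promoter table. The Zfp710 window is chr7:80024564-80024863 and the Zmiz1 window is chr14:25458935-25459234.
Zfp710: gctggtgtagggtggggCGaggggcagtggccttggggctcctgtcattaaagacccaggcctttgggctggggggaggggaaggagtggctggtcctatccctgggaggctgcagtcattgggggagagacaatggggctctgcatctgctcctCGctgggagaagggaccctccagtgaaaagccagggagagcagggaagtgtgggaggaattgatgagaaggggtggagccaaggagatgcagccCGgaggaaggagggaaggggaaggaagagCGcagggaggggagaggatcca
Zmiz1: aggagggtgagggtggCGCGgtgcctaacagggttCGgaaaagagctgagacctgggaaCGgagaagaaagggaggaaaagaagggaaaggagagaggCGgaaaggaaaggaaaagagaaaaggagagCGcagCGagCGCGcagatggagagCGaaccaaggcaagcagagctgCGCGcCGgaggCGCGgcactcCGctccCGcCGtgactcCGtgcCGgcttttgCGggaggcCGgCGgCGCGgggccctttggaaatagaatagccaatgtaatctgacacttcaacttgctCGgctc
The Zfp710 window held 4 CpGs at 62.7% G and C, and 31.4% of the 32851 RefSeq promoter windows held fewer. The Zmiz1 window held 26 CpGs at 60.7% G and C, and 83.1% of windows held fewer. The median window held 7 CpGs at 52.7% G and C. Both strands were searched for the GC box GGGCGG, the CCAAT box CCAAT, the TATA box TATAAA, the AP-1 site TGANTCA and the E-box CACGTG. Only CCAAT was found, once in each window, beginning at -132 in Zfp710 (on the minus strand) and at 16 in Zmiz1, counted from the start site as 0, so no match overlapped another. It was present in 37.4% of all windows, and the others in 35.7% (GGGCGG), 13.6% (TATAAA), 7.81% (TGANTCA) and 7.15% (CACGTG).

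The deposited lists held 766846 to 1163496 peaks in Azin2-/- libraries and 741843 to 1216000 in wild-type libraries, and the 30000 peaks of smallest p in each were used (the main peaks). Depth is unknown, since no read totals are given. The main peaks covered 21.1 to 28.9 Mb in Azin2-/- and 16.9 to 28.0 Mb in wild-type, with median widths of 629 to 870 bp and 454 to 791 bp. Wild-type replicate 1 stood apart with the narrowest peaks. As a check of the labelled cell type, main peaks within 1 kb of a gene end were counted. They stood at 0 to 2 of 8 progenitor markers in Azin2-/- and 1 to 2 of 8 in wild-type. Adipocyte markers had them at 2 to 4 of 7 in Azin2-/- and 2 to 3 of 7 in wild-type, with Plin1 and Cebpa covered in all 6 libraries. Over all protein-coding genes, 40.3% to 54.8% in Azin2-/- and 34.3% to 44.3% in wild-type had main-peak cover within 2 kb of a gene end, a wider window. The progenitor counts lay below these shares and the adipocyte counts near them, so they do not settle the cell type. None of 4 macrophage and blood markers was covered in any library, and of 4 endothelial markers only Kdr was, in Azin2-/- replicates 1 and 2. Of 4 muscle markers, 3, 3 and 2 were covered in Azin2-/- replicates 1, 2 and 8, against 0, 0 and 2 in wild-type replicates 1, 2 and 2b (Myod1, Pax7 and Des, never Myf5). The summed cover of the muscle loci was 9.52 to 14.0 kb in Azin2-/- and 0.749 to 11.2 kb in wild-type, so these ranges overlapped. Their part in the results below was not tested.

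Within the gene spans and 20 kb on each side, the main peaks of the 6 libraries merged into 39 regions, of which 5 were held by all 6 libraries and 30 by a single library. The 5 shared regions were the starts of the 3 genes, a region deep inside Zmiz1, and the start of Ppia beside Zmiz2. In the whole genome 3.23% of 128486 regions were held by all 6 libraries. That share was 24.0% of the 14612 regions within 1 kb of a gene end, a class that takes in all 5, the one deep inside Zmiz1 through the nested gene Gm45915.

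**Figure D1:**
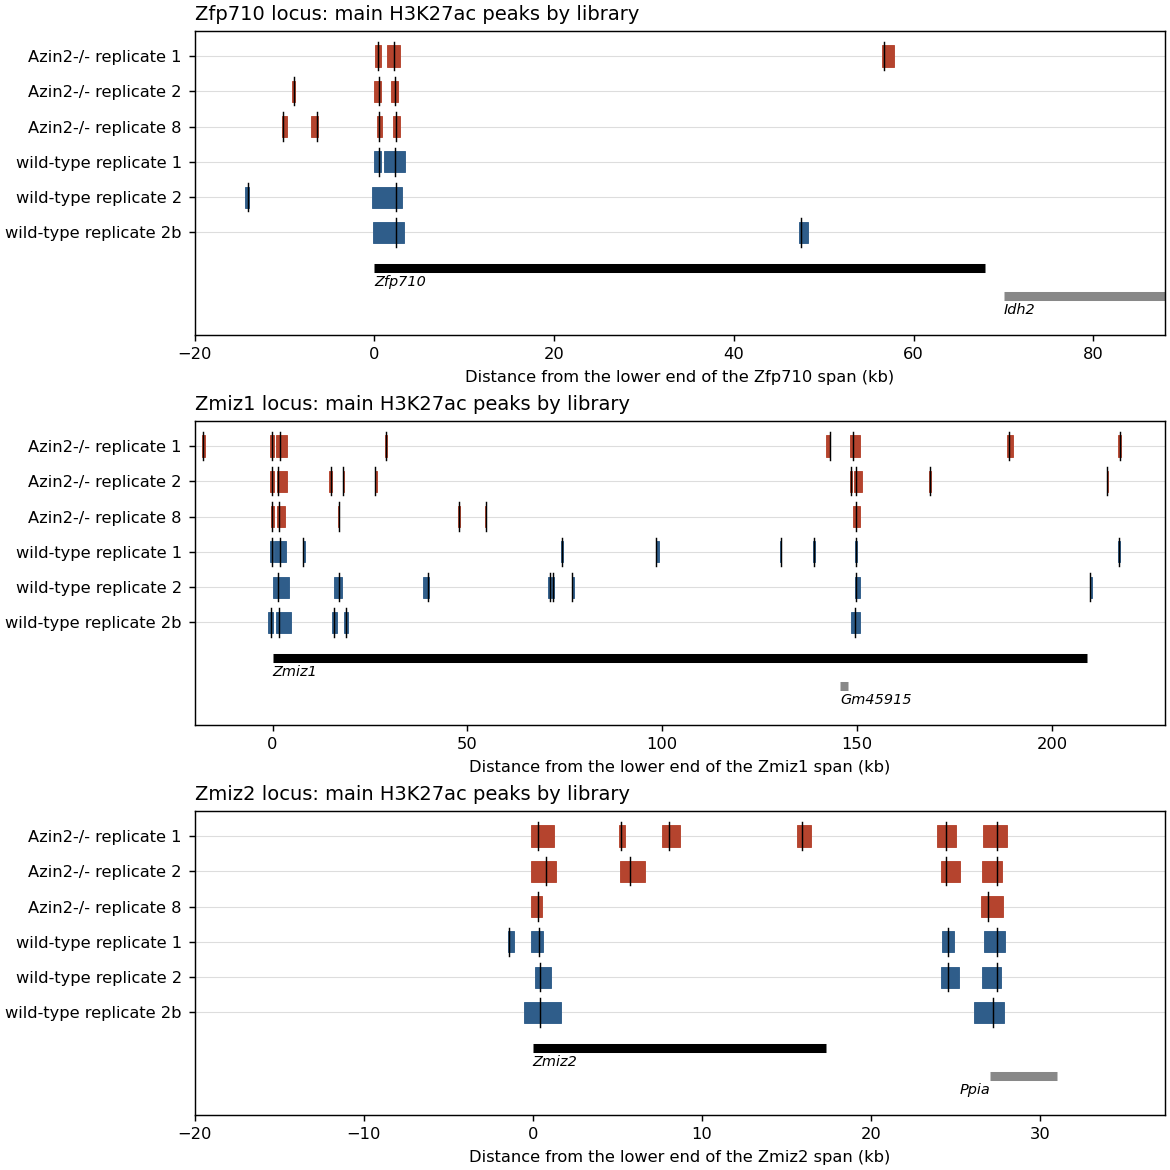
Main H3K27ac peaks (bars) and their summits (black ticks) in each library, by distance in kb from the lower end of each gene span, with protein-coding genes below (black, the gene named in the title; grey, its neighbours). All 6 libraries have peaks at the lower end of each gene, and Zmiz1 has a further group about 148 kb inside; most other peaks stand in a single library.

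Zfp710 (gene ID 209225) spans 67938 bp on chromosome 7, from 80024814 to 80092751, and its annotated start site is the lower end. Main peaks covered less of this start in the Azin2-/- libraries than in the wild-type libraries. Each Azin2-/- library had 2 separate peaks there, as did wild-type replicate 1, and wild-type replicates 2 and 2b had a single peak. The region, from 80024554 to 80028182, had 2056, 1471 and 1317 bp under main peaks in Azin2-/- replicates 1, 2 and 8, against 3107, 3375 and 3518 bp in wild-type replicates 1, 2 and 2b. Every Azin2-/- library lay below every wild-type library. The means were 1615 ± 390 bp for Azin2-/- and 3333 ± 209 bp for wild-type (SD, n = 3 each), a log2 difference of -0.98 on covered length plus 200 bp. Among the 22379 regions past the minimum of 200 bp mean cover, the genotypes were separated in this direction at 1.06% (238 regions) and in the other at 5.06% (1133 regions). These regions were unscaled. Once scaled to equal total cover, 582 of 22205 regions were separated in this direction and 1160 in the other. The limma test with Benjamini-Hochberg adjustment called no region (0% in each direction; 901 regions higher in Azin2-/- and 149 lower at an unadjusted p under 0.05). The choice of the gene used this contrast, so nothing is read from its place there.

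Summits kept their positions in both genotypes. The first lay 440, 511 and 483 bp past the start site in Azin2-/- replicates 1, 2 and 8, and 478 bp past it in wild-type replicate 1. The second lay 2240, 2302 and 2409 bp past the start site in Azin2-/- and 2282, 2380 and 2449 bp past it in wild-type replicates 1, 2 and 2b. The extent of the called peaks between and beside them differed. The uncovered gap was 705, 1179 and 1151 bp in Azin2-/- replicates 1, 2 and 8, against 330 bp in wild-type replicate 1. Wild-type replicates 2 and 2b had a single peak, 3375 and 3518 bp wide, across both positions. The farthest covered base lay 2813, 2592 and 2808 bp past the start site in Azin2-/-, against 3368, 3114 and 3340 bp in wild-type.

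On the near side, the peaks of Azin2-/- replicates 1 and 8 left the 300-base promoter window printed above uncovered (0%), and replicate 2 covered 35.7% of it. Wild-type replicates 1, 2 and 2b covered 39.3%, 100% and 75.7%. Every summit at this start lay past the annotated start site, in all 6 libraries. Azin2-/- replicate 8 stood apart in the background level that the deposited fold and p imply when a pseudocount of 1 is taken for the fold, with a median of 1.10 fragments over its main peaks, against 0.164 to 0.445 in the other libraries. At the second Zfp710 summit its implied background was 8.07 fragments. The implied pileups there were 21, 7 and 26 fragments in Azin2-/- replicates 1, 2 and 8, against 9, 14 and 42 in wild-type replicates 1, 2 and 2b. The deposited folds were 17.3, 5.53 and 2.98 in Azin2-/-, against 8.42, 10.6 and 15.7 in wild-type. Both measures of summit height overlapped between the genotypes. The part of the background of Azin2-/- replicate 8 in the called extent was not tested. Without Azin2-/- replicate 8 the log2 difference of the start region was -0.86.

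**Figure D2:**
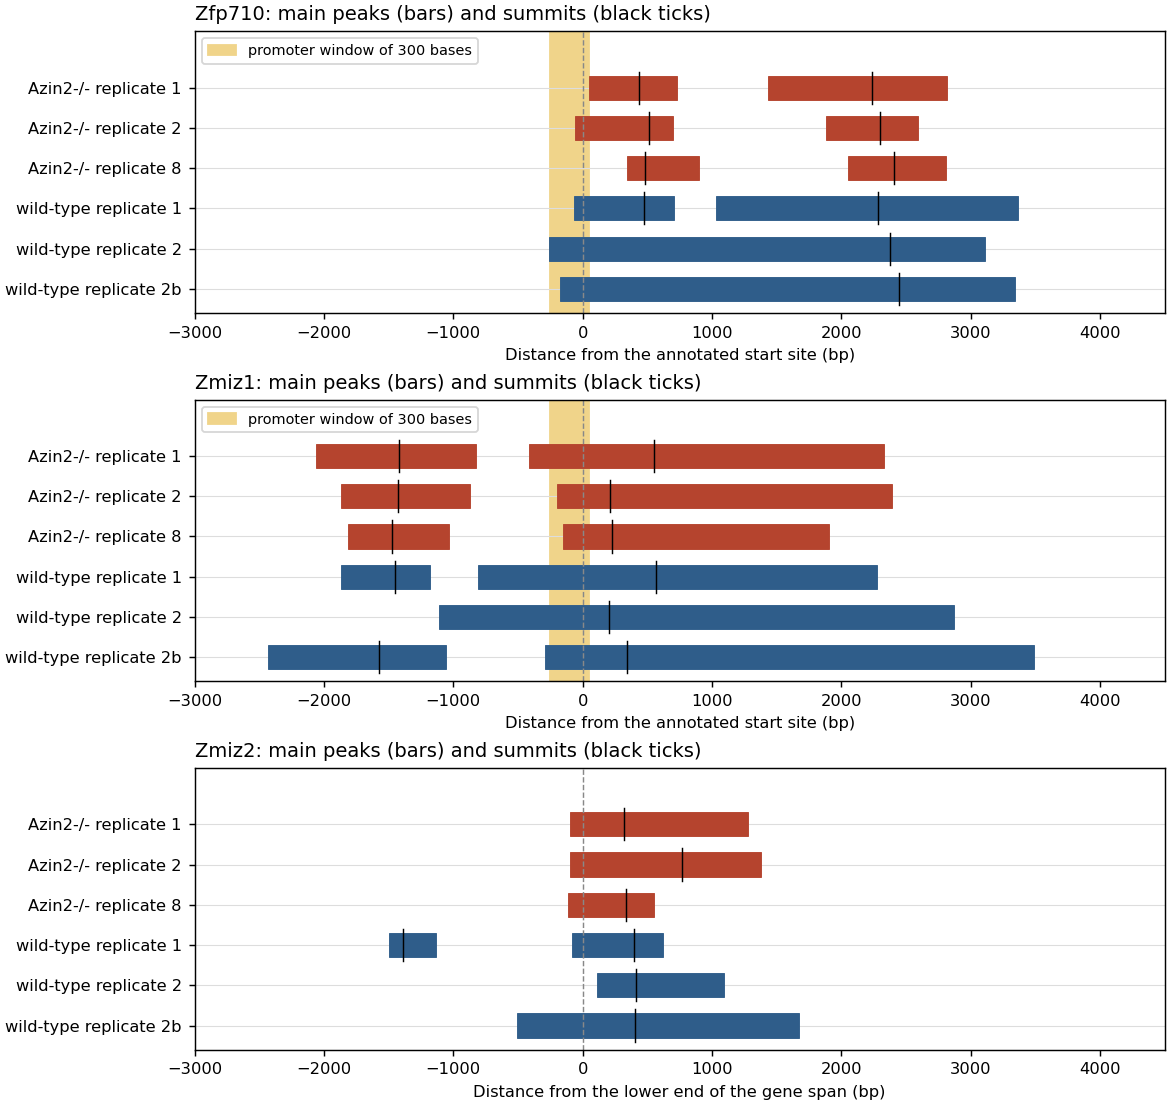
Main peaks (bars) and summits (black ticks) around each start, in bp from the annotated start site (Zfp710, Zmiz1) or from the lower end of the gene span (Zmiz2); the yellow band is the 300-base promoter window. At Zfp710 the 3 Azin2-/- libraries have gaps of 705 to 1179 bp and wild-type replicate 1 has a gap of 330 bp. Wild-type replicates 2 and 2b have a single peak there. At Zmiz1 and Zmiz2 the genotypes overlap in extent.

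The same layout is described next with weaker or fewer peaks. With all deposited peaks, Azin2-/- replicate 1 had a gap of 705 bp, and the longest gaps of replicates 2 and 8 were 638 and 1151 bp, against 330 bp in wild-type replicate 1 and none in wild-type replicates 2 and 2b. Cover was then 2056, 1825 and 1416 bp in Azin2-/-, against 3107, 3375 and 3518 bp in wild-type. At a deposited q of 0.01 or less, cover was 2056, 1471 and 755 bp in Azin2-/-, against 2335, 3375 and 3518 bp in wild-type. Across 15000, 30000 and 60000 peaks, the q thresholds of 0.05 and 0.01 and the whole lists, the log2 difference ran between -1.38 and -0.86. These lists are nested and the gene was selected on this contrast, so they add no support to it.

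**Figure D3:**
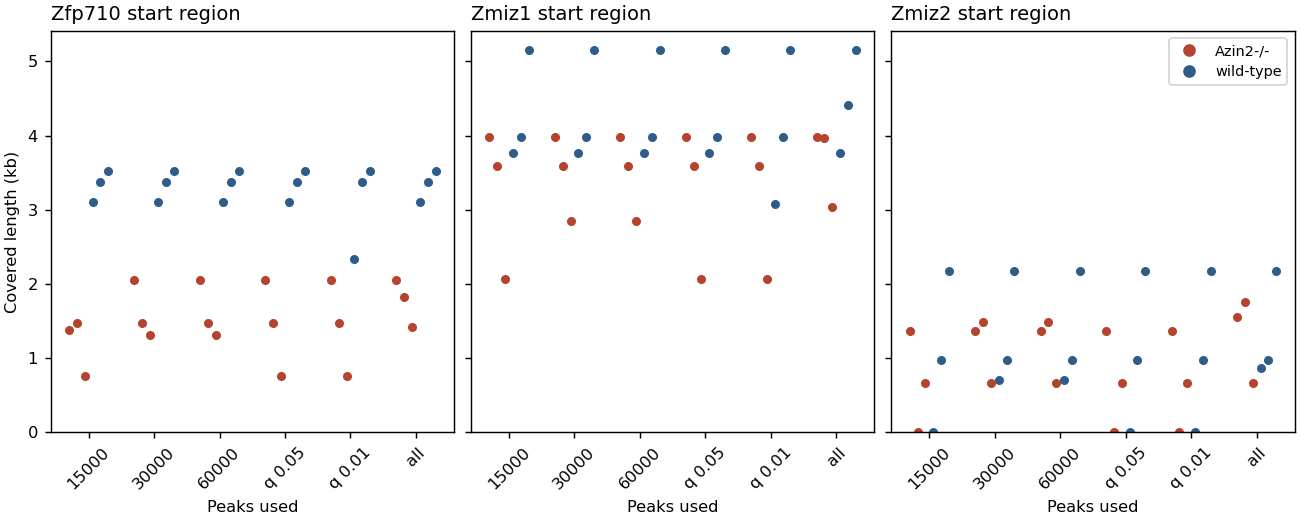
Covered length of each start region in kb, 1 point per library, for the 15000, 30000 or 60000 strongest peaks, deposited q of 0.05 or 0.01 or less, or all peaks. The Zfp710 points lie at 755 to 2056 bp in Azin2-/- and 2335 to 3518 bp in wild-type, and those of Zmiz1 and Zmiz2 overlap.

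The whole Zfp710 locus also takes in scattered peaks of single libraries. It held 3, 3 and 4 main peaks in Azin2-/- replicates 1, 2 and 8, against 2 in each wild-type library. Such a separation in peak number occurred at 3.34% of 14774 loci with Azin2-/- higher and at 1.31% with Azin2-/- lower. It was lost with 15000 peaks (1, 3 and 3 in Azin2-/- replicates 1, 2 and 8, against 2, 1 and 2 in wild-type replicates 1, 2 and 2b) and with 60000 peaks (4, 7 and 5, against 6, 2 and 6). Each Azin2-/- library had 2 of its peaks at the start, as did wild-type replicate 1. The further peaks in Azin2-/- came from 4 regions held by a single library each. Of these, 3 lay before the gene (beginning at -10.3, -9.17 and -7.07 kb) and 1 lay 56.4 kb inside it. Wild-type replicates 2 and 2b had 1 such region each, one before the gene and one 47.3 kb inside it.

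Covered length in the locus was 3407, 1797 and 2711 bp in Azin2-/- replicates 1, 2 and 8, against 3107, 3897 and 4497 bp in wild-type replicates 1, 2 and 2b, and these ranges overlapped. Once scaled to equal total cover, the values were 2739, 1844 and 2983 bp in Azin2-/-, against 4285, 4131 and 3736 bp in wild-type. These did not overlap, at a log2 difference of -0.61 with an SE of 0.35 on scaled length plus 500 bp. Of all loci tested, 4.14% were separated in this direction and 7.19% in the other, and limma called none (0% in each direction; 688 higher and 272 lower at an unadjusted p under 0.05). The start region made up 48.6% to 81.9% of the locus cover in Azin2-/- and 78.2% to 100% in wild-type.

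**Figure D4:**
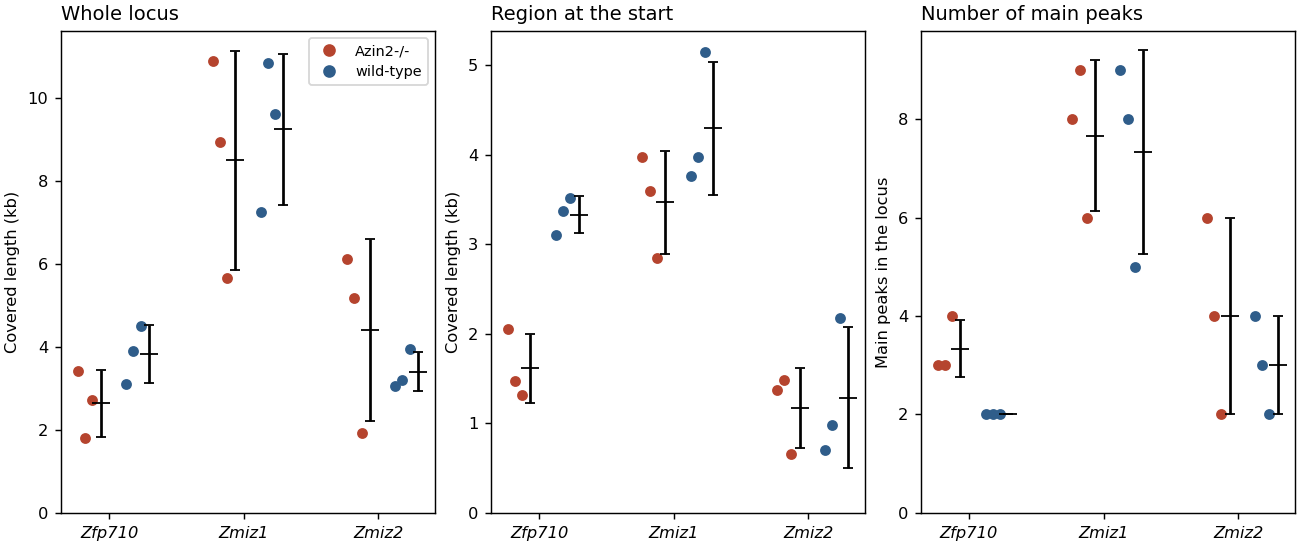
Covered length of the whole locus and of the start region in kb (unscaled), and the number of main peaks, for each library (points), with the mean and SD of 3 libraries beside them. The start region of Zfp710 is the place where both genotypes are separated in length, at 1317 to 2056 bp in Azin2-/- and 3107 to 3518 bp in wild-type.

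Zmiz1 (gene ID 328365) spans 208869 bp on chromosome 14, from 25457875 to 25666743, with its printed start site at 25459185. Its start was well covered in every library. The better-covered gene end, counted with 2 kb on each side, held more main-peak bases than that of 96.8% to 97.2% of protein-coding genes in Azin2-/- libraries and of 96.5% to 99.2% in wild-type libraries. For Zfp710 that share was 66.8% to 75.7% in Azin2-/- and 95.9% to 99.0% in wild-type.

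The Zmiz1 start region, from 25456754 to 25462673, had 3977, 3592 and 2846 bp under main peaks in Azin2-/- replicates 1, 2 and 8, against 3768, 3981 and 5150 bp in wild-type replicates 1, 2 and 2b. The genotypes overlapped, since Azin2-/- replicate 1 exceeded wild-type replicate 1. The means were 3472 ± 575 bp for Azin2-/- and 4300 ± 744 bp for wild-type (SD, n = 3 each), a log2 difference of -0.29. Without wild-type replicate 2b it was -0.16, and without Azin2-/- replicate 8 also -0.16.

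The Zmiz1 start had a layout of 2 main peaks in every library but wild-type replicate 2. The main summit lay 551, 210 and 227 bp past the start site in Azin2-/- replicates 1, 2 and 8 and 567, 204 and 345 bp past it in wild-type replicates 1, 2 and 2b. An upstream summit lay at -1419, -1424 and -1475 bp in Azin2-/-, against at -1447 and -1577 bp in wild-type replicates 1 and 2b, close to the lower end of the gene span. Wild-type replicate 2 had it only among its weaker deposited peaks. The promoter window was covered by 100%, 82.0% and 68.3% in Azin2-/- replicates 1, 2 and 8, and by 100% in each wild-type library, so this CpG-rich start lay under a peak in every library.

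Inside the gene, a region from 25605946 to 25609066 was held by all 6 libraries. It lies 148 kb from the lower end of Zmiz1 and just past the small nested gene Gm45915, whose own promoter window was uncovered (0%) in every library. Cover there was 2473, 2610 and 1650 bp in Azin2-/- replicates 1, 2 and 8, against 560, 1279 and 2321 bp in wild-type replicates 1, 2 and 2b. The log2 difference was 0.76, opposite in sign to that at the start, and the genotypes overlapped through wild-type replicate 2b. It was 0.32 when wild-type replicate 1 was left out and 1.18 when replicate 2b was.

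A region of this kind was uncommon. Of 2426 genes of at least 100 kb, 5.85% had a region in all 6 libraries at least 5 kb inside both ends, and of 13886 genes over 10 kb, 2.26% had one. Zmiz1 was among them and Zfp710 and Zmiz2 were not. Exons were not placed, so an intron and an exon cannot be told apart here. A further region, 14.5 kb inside the gene, had 0, 909 and 299 bp in Azin2-/- replicates 1, 2 and 8 and 0, 1945 and 1332 bp in wild-type replicates 1, 2 and 2b. Another 21 of the 25 regions of the locus stood in a single library.

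Over the whole locus Zmiz1 had 8, 9 and 6 main peaks in Azin2-/- replicates 1, 2 and 8, against 9, 8 and 5 in wild-type replicates 1, 2 and 2b. Cover was 10889, 8926 and 5654 bp in Azin2-/-, against 7245, 10845 and 9615 bp in wild-type, and both measures overlapped. On the scaled log2 scale the difference was -0.28 with an SE of 0.34, and it was -0.11 when Azin2-/- replicate 8 was left out and -0.16 when wild-type replicate 2 was. Zmiz1 held more cover than 98.8% to 99.9% of the tested loci in each library, which its length favours.

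Zmiz2 (gene ID 52915) spans 17364 bp on chromosome 11, from 6388799 to 6406162. The region at its lower end held a single main peak in all 6 libraries, and the ranges of the genotypes overlapped. The strength of this peak varied, from rank 546 by p in Azin2-/- replicate 8 to rank 22212 in wild-type replicate 1. Wild-type replicate 1 also had a separate main peak of 356 bp, with its summit at -1390 bp from the lower end. The region, from 6388293 to 6390472, had 1373, 1482 and 662 bp in Azin2-/- replicates 1, 2 and 8, against 701, 978 and 2180 bp in wild-type replicates 1, 2 and 2b. The means were 1172 ± 445 bp for Azin2-/- and 1286 ± 786 bp for wild-type (SD, n = 3 each), a log2 difference of -0.05, which was 0.26 when Azin2-/- replicate 8 was left out and 0.35 when wild-type replicate 2b was. Summits lay 320, 771 and 336 bp above the lower end in Azin2-/- and 396, 411 and 402 bp above it in wild-type. At a deposited q of 0.05 or less this region was at 0 in Azin2-/- replicate 2 and in wild-type replicate 1.

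The position of cover within the Zmiz2 locus was tested, because it played no part in the choice. Over the genome, 24.0% of regions at gene ends were held by all 6 libraries, against 1.06% of those inside genes. More cover at gene ends could therefore be foreseen and is not particular to Zmiz2, so the p below tells nothing specific about this gene. Within 2 kb of both gene ends, 27.8%, 18.5% and 8.27% of bases were covered in Azin2-/- replicates 1, 2 and 8, and 13.2%, 12.2% and 27.2% in wild-type replicates 1, 2 and 2b. In the rest of the locus, which includes the start of Ppia, the shares were 7.87%, 7.49% and 2.57% in Azin2-/- and 4.06%, 4.49% and 3.57% in wild-type. Counted together, the ends were more covered in 6 of 6 libraries, by 12.9 ± 7.23 percentage points (SD, n = 6). The p was 0.03125 in a two-sided exact sign-flip permutation test, the smallest p that 6 libraries allow. Only Azin2-/- replicate 1 had a main peak within 2 kb of the upper end (851 bp). In every other library the covered bases of these windows lay at the lower end. The labels do not say how wild-type replicates 2 and 2b relate; with their mean counted as 1 library the difference was 12.3 points and the exact p was 0.0625, the smallest for 5. With windows of 5 kb the difference was 0.533 points (exact p = 0.875), and with the 15000 strongest peaks 6.51 points (exact p = 0.219).

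At the other genes the share is given as a description, over the window of the single start site. Around the start site of Zmiz1, 71.1% to 89.7% of bases were covered in Azin2-/- and 77.7% to 87.3% in wild-type. Around that of Zfp710 the shares were 31.1%, 22.0% and 14.0% in Azin2-/- replicates 1, 2 and 8, against 43.5%, 56.5% and 54.4% in wild-type replicates 1, 2 and 2b. Counted at the better-covered gene end alone, Zmiz2 exceeded Zfp710 in Azin2-/- replicates 1, 2 and 8 (1373, 1482 and 662 bp, against 1243, 879 and 562 bp) and, by 2 bp, in wild-type replicate 2b, and was below it in wild-type replicates 1 and 2. The rest of the Zfp710 or Zmiz1 locus was covered by 0.883% to 3.16% in the 6 libraries.

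**Figure D5:**
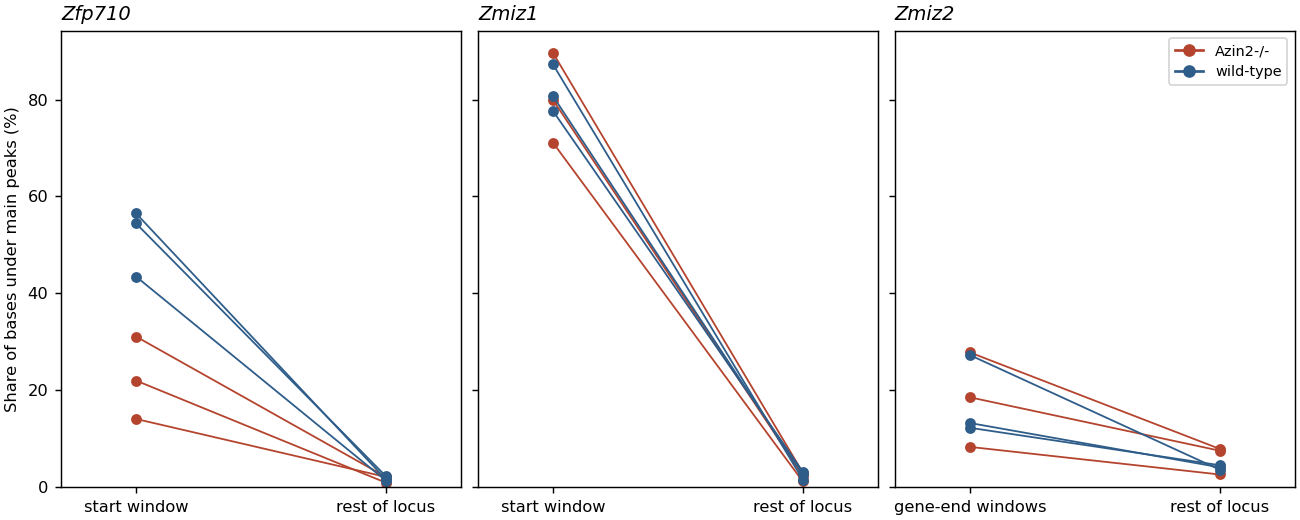
Share of bases under main peaks (%) within 2 kb of the start site (Zfp710, Zmiz1) or of both gene ends (Zmiz2) and in the rest of the locus, 1 line per library. Every line falls to the right, from 8.27% or more in these windows to 7.87% or less elsewhere.

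Further regions also stood in the Zmiz2 locus, each held by some of the libraries. One 5.10 kb inside the gene was held by Azin2-/- replicates 1 and 2 (326 and 1465 bp) and by no wild-type library. The other, from 6412720 to 6414039, lay between Zmiz2 and Ppia, the gene of the prolyl isomerase cyclophilin A, with summits at -2629 to -2513 bp from the start of Ppia. It had 1094, 1074 and 0 bp in Azin2-/- replicates 1, 2 and 8, against 737, 1078 and 0 bp in wild-type replicates 1, 2 and 2b, so its presence differed among libraries within each genotype. Its deposited folds were 14.1 and 11.1 in Azin2-/- replicates 1 and 2, and 3.41 and 5.59 in wild-type replicates 1 and 2. At the lower end of Zmiz2 the folds were 8.45 and 3.46 in the same Azin2-/- libraries, and 3.47 and 6.21 in the same wild-type libraries. The Ppia start itself had 1428, 1159 and 1271 bp in Azin2-/-, against 1268, 1139 and 1763 bp in wild-type.

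The whole Zmiz2 locus held 6, 4 and 2 main peaks in Azin2-/- replicates 1, 2 and 8, against 4, 3 and 2 in wild-type replicates 1, 2 and 2b. Cover was 6107, 5180 and 1933 bp in Azin2-/-, against 3062, 3195 and 3943 bp in wild-type. Azin2-/- replicate 8 was the lowest and the other Azin2-/- libraries the highest, so the log2 difference of 0.08 (SE 0.38) lay well inside the spread. The order of whole-locus cover was Zmiz1 above both other genes in every library, while Zfp710 and Zmiz2 changed places between libraries.

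None of the protein-coding neighbours passed the limma test across loci. Idh2, the mitochondrial isocitrate dehydrogenase beside Zfp710, had a log2 difference of 1.00 (limma adjusted p = 0.789). Gm45915 had 0.42 (limma adjusted p = 0.877) and Ppia -0.0011 (limma adjusted p = 0.999). These loci share bases with those of the 3 genes.

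Genes around the ZMIZ proteins were described from 5 lists, set beside a median log2 difference of 0.098 over all 14774 tested loci, and limma called no member of any list. Of the 5 genes of the PIAS family, the relatives that attach SUMO, 2 had a positive and 3 a negative difference, with a median of -0.07. All 5 had a main peak at a gene end in Azin2-/- replicates 1 and 8 and in wild-type replicates 1 and 2b, and 4 did in the other libraries. Over all protein-coding genes that share was 34.3% to 54.8% with windows of 2 kb. Pias3 had 0.21 and Nsmce2 -0.17 on the log2 scale (limma adjusted p = 0.943 and 0.972).

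The SUMO cycle list of 14 genes, which make, attach and remove the modifier, had 6 positive and 8 negative differences and a median of -0.10. Uba2, a subunit of the activating enzyme, had 1775 ± 1080 bp in Azin2-/-, against 2758 ± 437 bp in wild-type, a log2 difference of -0.74 (limma adjusted p = 0.764), and Sae1, the other subunit, had -0.39 (limma adjusted p = 0.866).

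Of 9 genes for partners of the ZMIZ proteins, 3 had a positive and 6 a negative difference, with a median of -0.36. Trp53, the gene of p53, had 2484, 1701 and 2053 bp in Azin2-/- replicates 1, 2 and 8, against 0, 1517 and 0 bp in wild-type replicates 1, 2 and 2b, with a log2 difference of 1.63 (limma adjusted p = 0.751). Its genotypes did not overlap, as at 7.19% of all loci in this direction. The TGF-beta signal carriers Smad4 and Smad3 had 0.58 and -0.53 (limma adjusted p = 0.822 and 0.812). Rbpj, the DNA-binding partner of Notch, had -0.51 (limma adjusted p = 0.853).

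Of 12 Notch pathway genes, 3 had a positive and 9 a negative difference, with a median of -0.18. The feedback inhibitor Nrarp had 0.80 and the target Myc 0.82 (limma adjusted p = 0.757 and 0.845), while the receptor Notch2 had -0.60 and the coactivator Maml2 -0.67 (limma adjusted p = 0.811 and 0.845). Of 5 zinc-finger factors known from fat cells, 2 were positive and 3 negative, with a median of -0.30. Among them Prdm16, which drives brown and beige fat identity, had 0.75 and Zfp467 0.24, while Zfp516 had -0.47 and Zfp521, which holds back fat-cell formation, -0.36 (limma adjusted p = 0.757, 0.951, 0.858 and 0.902).

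The loci most like each gene were named by Pearson's r of log2 scaled cover over the 6 libraries, with both genotypes and total cover shared by all points. Those of Zfp710 were Fat3 (r = 0.99), a cadherin, Pkd1l3 (r = 0.99) and Crispld2 (r = 0.98). Fat3 had 3170, 1235 and 2307 bp in Azin2-/- replicates 1, 2 and 8 and 3536, 4598 and 4942 bp in wild-type replicates 1, 2 and 2b. It was picked for its likeness to Zfp710 over these same libraries, so its genotype difference follows from that choice. On scaled cover, 4.14% of all tested loci had every Azin2-/- library below every wild-type library. Those of Zmiz1 were Itpkb, an inositol trisphosphate kinase, Frmpd1 and Paip1 (r = 0.99 each). Those of Zmiz2 were the homeobox gene Dlx1 (r = 0.99) and the adjoining methyltransferase genes Mettl1 (r = 0.99) and Eef1akmt3 (r = 0.98). An r above 0.95 was reached by 30 of 14741 loci for Zfp710, 32 of 14763 for Zmiz1 and 36 of 14741 for Zmiz2. Among the 3 genes themselves, r was 0.30 for Zfp710 with Zmiz1, -0.40 for Zfp710 with Zmiz2 and 0.59 for Zmiz1 with Zmiz2.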

How the data were processed

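H3K27ac was profiled by ChIP-seq in 6 libraries, 3 Azin2-/- and 3 wild-type. The authors deposited 1 peak list per library on the mouse build mm10 (GRCm38 in the submitters' processing notes). The choice of aligner, peak caller, control library and duplicate handling was not given in the sources used here. Per peak, the deposited lists hold a score, a fold ratio of summit over background, the summit position, and a p-value and a q-value, both as -log10. Within a list, these values by the authors served to rank and filter peaks.

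The members and lists were chosen with earlier results of these data known. The main peaks were the 30000 of smallest p per library on chromosomes 1 to 19 and X. Covered bases were counted per gene span with 20 kb on each side (RefSeq spans and promoter windows, GRCm38.p6), scaled to equal total cover, and 500 bp were added before the log2. Loci with a mean of at least 500 bp were tested. Merged regions were left unscaled, with 200 bp added and a minimum mean of 200 bp. Both were fitted with limma 3.58.1 in R 4.3.3 (eBayes with a mean trend, Benjamini-Hochberg adjustment at 0.05), on code tested on simulated data. The Zmiz2 windows were compared by exact sign flips over libraries (Python 3.11.15). Both gene ends stood in for the start of Zmiz2.

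The genes named are the 3 members, the protein-coding genes that overlap their loci, the 2 list members of smallest p in each direction, and the 3 loci of highest r per member, over 1 Mb away. Fat3 was given in full for its r. Some genes that the rule names are not reported here. Alternatives were other list lengths, q thresholds, flanks, pseudocounts, minimums, scalings and windows, the replicate block, the mean of wild-type replicates 2 and 2b in their place, and leaving out each library in turn. The start-region alternatives, the mean of replicates 2 and 2b for the Zmiz2 windows, the windows of 250 bp around summits and the scaled regions were added after seeing the data.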

Additional observations from a re-analysis of the deposited data

How the results depend on the processing

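The count of loci called stayed at 0 under all alternatives but a q of 0.01 or less (13 loci) and leaving out wild-type replicate 2 (1 locus), and over the libraries left out in turn it ran between 0 and 1. The count of regions called was 21 with 60000 peaks and 30 with no minimum, and between 0 and 15 with a library left out (15 without wild-type replicate 1). It was 0 under the others. The cause was not tested. With the replicate block both counts were 0 (890 loci and 2327 regions higher, and 199 loci and 129 regions lower, at an unadjusted p under 0.05). The genotype mean of each locus was subtracted, and the remaining deviations of same-numbered libraries were correlated. The values were -0.031 for number 1 and 0.107 for number 2, so they do not describe the likeness of whole libraries. These are too few pairs to treat the numbers as pairing, and the labels name no shared batch or day.

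The excess of cover at the ends of Zmiz2, counted together, was 6.51 points with 15000 peaks (exact sign-flip p = 0.219). It was 11.3 points with all deposited peaks (exact p = 0.0938) and 0.533 with windows of 5 kb (exact p = 0.875). With a library left out it was 10.7 to 14.3 points (exact p = 0.0625 each, the smallest that 5 libraries allow). Counting the mean of wild-type replicates 2 and 2b as 1 library gave 12.3 points (exact p = 0.0625).

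The log2 difference of the Zfp710 locus kept its sign in 17 of 18 alternatives, but was -0.21 with all deposited peaks and -1.001 with 15000. With windows of 250 bp around summits in place of whole peaks it was 0.52: each peak then counts alike, and Azin2-/- libraries had 3, 3 and 4 main peaks there, against 2 in each wild-type library. That of the Zmiz1 locus kept its sign in 17 of 18 (0.07 with summit windows) and that of the Zmiz2 locus in 13 of 18. The start-region difference kept its sign in 13 of 13 alternatives at Zfp710 and Zmiz1 and in 10 of 13 at Zmiz2. Zfp710 and Zmiz1 were selected on this contrast and the alternatives reuse the same libraries, so kept signs there add no support. With the replicate block the start-region difference was -0.82 at Zfp710, -0.03 at Zmiz1 and 0.66 at Zmiz2, and the region inside Zmiz1 had 1.37. These block values rest on replicates 1 and 2 of each genotype alone. Peak-list extents depend on depth, which is unknown here, and on the unstated peak caller. Covered length is no measure of signal height.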

Other observations

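The start of Idh2, the neighbour of Zfp710, lies just outside the 20 kb flank. Its promoter window was covered by 100%, 100% and 31.0% in Azin2-/- replicates 1, 2 and 8 and by 0%, 100% and 92.7% in wild-type replicates 1, 2 and 2b. The promoter window of Ppia was covered by 100% in all 6 libraries.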
